A study of Homo sapiens with 6 samples.

Results

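The glucose-sensing transcription factors ChREBP (MLXIPL) and MondoA (MLXIP), their partner MLX and 7 other genes were examined in hepatocellular carcinoma cells that overexpress hexokinase 1. The 7 were TXNIP, its arrestin relatives ARRDC1, ARRDC2, ARRDC3 and ARRDC4, and the glucose-responsive genes KLF10 and RGS16. The 10 genes were taken by name from a table of 79172 gene names, and all 10 were found. The cells were Huh7, an established human hepatocellular carcinoma line, and RNA-seq was made from 3 HK1-overexpressing samples and 3 control samples. No drug, time point or medium is named in the labels. How HK1 was introduced, whether a clone or a pool was used, what the control cells carried and how much glucose they received are details not given in the sources used here. Nothing in the labels ties replicates to separate cultures, so p-values reflect the spread among these 6 samples alone, and that spread may be technical.

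As background, ChREBP and MondoA are basic helix-loop-helix leucine zipper proteins that bind DNA as heterodimers with MLX at carbohydrate response elements, a pair of E-box-like sites a few bases apart. Glucose 6-phosphate, the product of hexokinases, is among the signals that activate them. ChREBP is known in liver for driving glycolytic and lipogenic genes, and MondoA in many cell types for driving TXNIP and ARRDC4. TXNIP and the ARRDC proteins are alpha-arrestins, adaptors that recruit ubiquitin ligases of the NEDD4 family to membrane proteins such as transporters and receptors. TXNIP also binds thioredoxin and lowers glucose uptake.

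The labels were checked first on the overexpressed gene. HK1 had 491, 511 and 527 CPM (counts scaled to a normalised library of 1000000) in the HK1-overexpressing libraries and 0.655, 0.882 and 0.790 CPM in the control libraries. Library totals lay between 16771835 and 20823072 counts. Control libraries differed from each other more than HK1-overexpressing ones did, with a chi-square per degree of freedom of 1.58 to 2.29 between pairs of HK1-overexpressing libraries and 5.10 to 11.4 between pairs of control libraries. All 8 hepatocyte markers listed were detected, with a summed level of 9220 to 9500 CPM in HK1-overexpressing libraries and 11900 to 12900 CPM in control libraries. Of 5 markers each of other cell types, fibroblast markers summed to 18.8 to 21.7 CPM in HK1-overexpressing and 14.4 to 15.9 CPM in control libraries, leukocyte markers to 3.23 to 3.90 CPM in HK1-overexpressing and 3.34 to 3.98 CPM in control libraries, and endothelial markers to 4.69 to 5.60 CPM in HK1-overexpressing and 4.13 to 6.51 CPM in control libraries. Over 1 CPM were 2 of the fibroblast markers, COL1A2 and COL3A1, and 1 each of the others, CD14 and PECAM1. The higher fibroblast sum came from COL1A2, with a mean of 17.8 CPM in HK1-overexpressing and 11.9 CPM in control libraries. COL3A1, partly annotated on an alternate sequence, had lower means, 1.82 CPM in HK1-overexpressing and 2.53 CPM in control libraries. COL1A1 and PDGFRB also had lower means in HK1-overexpressing libraries, and DCN had almost no counts. MS4A1, CDH5 and KDR had no count in any library. The part of these marker levels in the results below was not tested. The samples are of 1 cell line and not a tissue of several cell types. Within the line, bulk counts cannot tell fewer cells expressing a gene from less of its RNA per cell.

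The 10 genes were expressed at very unequal levels. Levels of different genes were compared as CPM per kilobase of annotated exon, which corrects for length only roughly because exons of all transcripts are summed. Of the 19340 exon bases annotated for MLXIP, only the 13868 on the chromosome entered its length, and the rest lie on an alternate sequence. MLX was the highest, with 15.9 to 16.7 CPM per kilobase in HK1-overexpressing and 14.7 to 16.8 in control libraries. KLF10 followed with 13.6 to 14.7 in HK1-overexpressing and 10.8 to 13.3 in control libraries, and ARRDC1 with 10.6 to 11.9 in HK1-overexpressing and 11.1 to 12.5 in control libraries. The ranges of KLF10 and ARRDC1 overlapped in control libraries and did not in HK1-overexpressing ones. A middle group held ARRDC3, MLXIPL and MLXIP, between 2.88 and 5.28 CPM per kilobase, followed by ARRDC2 with 1.07 to 1.34 in HK1-overexpressing and 0.811 to 0.967 in control libraries. TXNIP, usually regarded as the leading target of MondoA, was far lower, at 0.201 to 0.250 CPM per kilobase in HK1-overexpressing and 0.294 to 0.405 in control libraries. By mean CPM TXNIP ranked 14350 of 79172 gene names. ARRDC4 and RGS16 were lower still, at no more than 0.0394 CPM per kilobase in any HK1-overexpressing library and 0.116 in any control library.

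**Figure D1:**
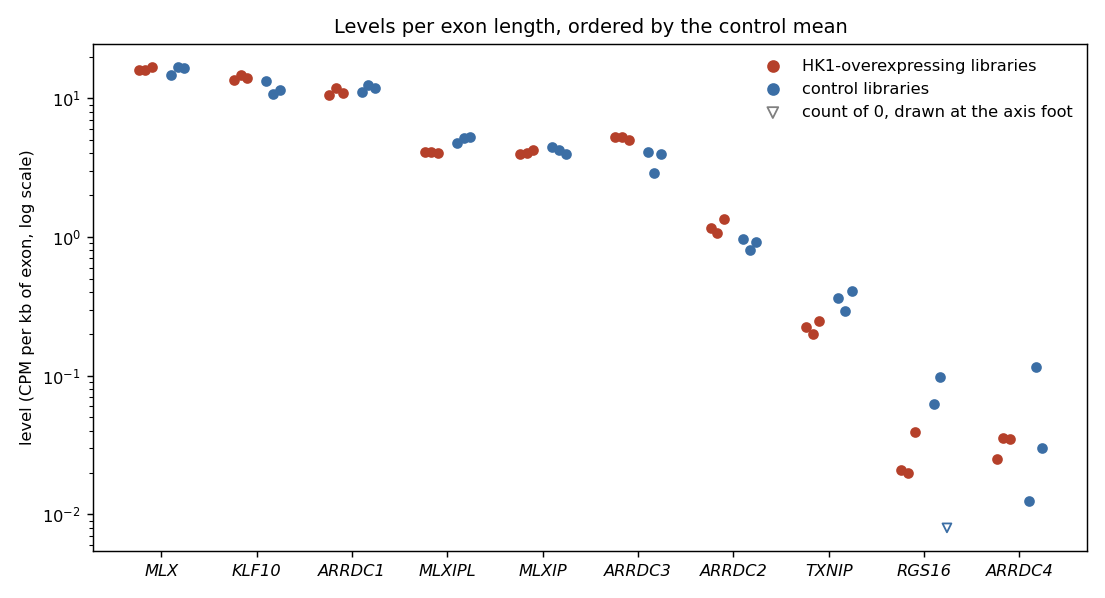
Level of each of the 10 genes in CPM per kilobase of exon, on a log axis, with HK1-overexpressing libraries (red) left of control libraries (blue) and genes ordered by the control mean. MLX lies near 16 in both groups, TXNIP under 0.41, and ARRDC4 and RGS16 at 0.116 or less.

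The order of the middle group was not the same in both groups of libraries. In HK1-overexpressing libraries ARRDC3 stood above MLXIPL and MLXIP, with 5.01 to 5.28 CPM per kilobase against 4.03 to 4.13 for MLXIPL and 3.94 to 4.23 for MLXIP. In control libraries MLXIPL stood first with 4.73 to 5.22, above MLXIP with 3.99 to 4.48 and ARRDC3 with 2.88 to 4.07. The ranges of MLXIPL and MLXIP overlapped in HK1-overexpressing libraries, and those of MLXIP and ARRDC3 overlapped in control libraries. The place of MLXIP depends on its length: over all 19340 bases, an alternative chosen after seeing the data, it had 2.83 to 3.04 CPM per kilobase in HK1-overexpressing libraries, below MLXIPL with no overlap, and 2.86 to 3.21 in control libraries, with a mean below that of ARRDC3.

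Of the 10 genes, 8 had enough counts to be tested and 2, ARRDC4 and RGS16, did not. ARRDC3 rose, MLXIPL fell, and the other 6 did not pass the test. A gene is said to have changed where its adjusted p was under 0.05 (edgeR quasi-likelihood test, Benjamini-Hochberg adjustment over all 16734 tested genes), and fold changes are HK1-overexpressing over control on the log2 scale. Across all tested genes 8.02% changed, 3.87% higher and 4.15% lower, and with 8 genes, 1 call in each direction is not read as a property of the set. Without any 1 HK1-overexpressing replicate none of the 8 passed, without control replicate 3 ARRDC3 alone did, and without control replicate 1 KLF10 did as well as both. In CPM the groups did not overlap for 5 of the 8 genes, beside 27.8% of all tested genes. The median log2 fold change of the 8 was -0.02, beside 0.01 over all tested genes.

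**Figure D2:**
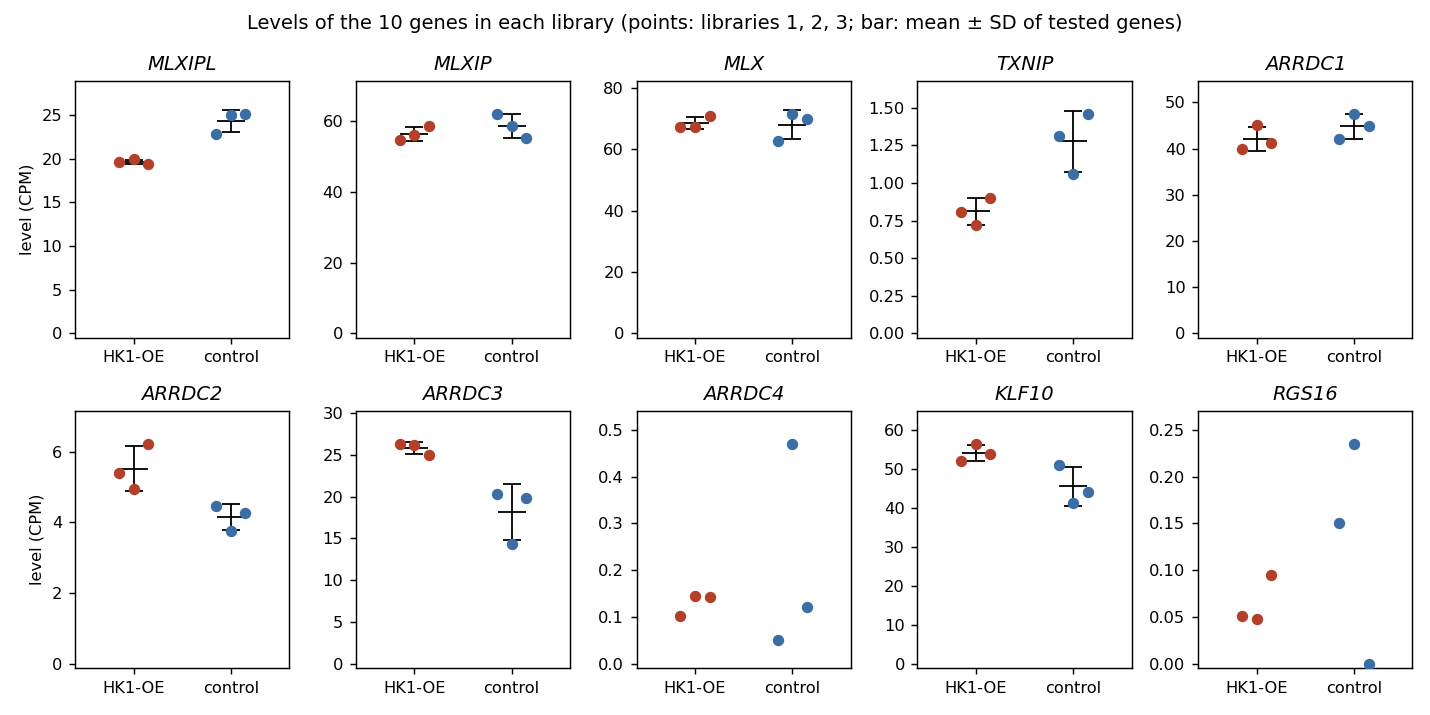
Level of each of the 10 genes in CPM in the 3 HK1-overexpressing libraries (HK1-OE, red) and the 3 control libraries (blue), on linear axes, with mean and SD (n = 3 each) drawn for the 8 tested genes. The groups are apart for MLXIPL and TXNIP, which lie lower in HK1-overexpressing libraries, and for ARRDC2, ARRDC3 and KLF10, which lie higher.

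Among the factors, only MLXIPL passed the test. MLXIPL, the gene of ChREBP, lies on the minus strand of chromosome 7 from 73593194 to 73624543 (hg38). Its level was 19.6, 19.9 and 19.4 CPM in HK1-overexpressing libraries, against 22.8, 25.0 and 25.1 CPM in control libraries. All 3 HK1-overexpressing libraries were below the lowest control library. The mean was 19.6 ± 0.221 CPM in HK1-overexpressing and 24.3 ± 1.33 CPM in control libraries (SD, n = 3 each), a change of -19.2%, and the log2 fold change was -0.31 (SE 0.0737, edgeR adjusted p = 0.0192). The call was lost without control replicate 3 (adjusted p = 0.0818) or without HK1-overexpressing replicate 1, 2 or 3 (adjusted p = 0.0964, 0.0891 and 0.101), in a range of 0.00385 to 0.101 over 15 alternatives, while the fold change stayed between -0.35 and -0.27. Counts per gene name add up all transcripts, so the ChREBP isoforms were not told apart.

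MLXIP, the gene of MondoA, lies on the plus strand of chromosome 12 from 122078756 to 122147344 (hg38). It had 54.6, 56.1 and 58.7 CPM in HK1-overexpressing libraries and 62.1, 58.8 and 55.3 CPM in control libraries. The groups overlapped, and the log2 fold change of -0.06 had a 95% interval of -0.19 to 0.08 (edgeR adjusted p = 0.652). Part of MLXIP is also annotated on an alternate sequence, so fragments that match both places may be missing and its level may be too low.

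MLX, the obligate partner of both factors, lies on the plus strand of chromosome 17 from 42567072 to 42573239 (hg38). It had 67.5, 67.5 and 70.9 CPM in HK1-overexpressing libraries, and 62.7, 71.6 and 69.9 CPM in control libraries. The HK1-overexpressing values lay within the range of the controls. The log2 fold change was 0.01 with a 95% interval of -0.12 to 0.15 (edgeR adjusted p = 0.928). PSMC3IP, on the opposite strand, shares 18.2% of the exon bases of MLX, where unstranded counting leaves fragments unassigned.

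Within the alpha-arrestins, ARRDC3 rose while TXNIP lay lower without passing the test. TXNIP, the thioredoxin-interacting protein, lies on the minus strand of chromosome 1 from 145992435 to 145996579 (hg38). Raw counts were 16, 15 and 19 in HK1-overexpressing libraries and 26, 18 and 24 in control libraries. In CPM these were 0.808, 0.723 and 0.902 in HK1-overexpressing libraries, against 1.31, 1.06 and 1.46 in control libraries. The groups did not overlap, but each library held few fragments. The log2 fold change was -0.65 (SE 0.256, 95% interval -1.20 to -0.11) with an edgeR adjusted p of 0.143. Summed over libraries, 50 counts in HK1-overexpressing and 68 in control cells gave a ratio of 0.636 with an exact 95% Poisson interval of 0.432 to 0.930, which covers counting error only. No exon of TXNIP is shared with another gene of the annotation or lies on an alternate sequence.

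The promoter sequences of TXNIP and ARRDC4 are shown because both are textbook targets of the MLX heterodimers and both had few counts, and that of ARRDC3 because this was the arrestin that rose. Each is the 250 bases before the RefSeq start (GRCh38.p14), 5′ to 3′ on the strand of the gene. Capitals mark 3 motifs searched on both strands: the E-box CACGTG, the carbohydrate-response-like pair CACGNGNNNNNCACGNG, whose arms can overlap an E-box, and the CCAAT box, which reads ATTGG on the other strand.
TXNIP, chr1:145996580-145996829, minus strand: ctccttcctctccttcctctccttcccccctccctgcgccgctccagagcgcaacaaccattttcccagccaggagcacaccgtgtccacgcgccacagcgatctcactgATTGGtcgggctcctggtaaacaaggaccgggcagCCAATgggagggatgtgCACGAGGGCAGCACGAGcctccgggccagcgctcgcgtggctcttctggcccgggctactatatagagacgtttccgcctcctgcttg
ARRDC4, chr15:97960453-97960702, plus strand: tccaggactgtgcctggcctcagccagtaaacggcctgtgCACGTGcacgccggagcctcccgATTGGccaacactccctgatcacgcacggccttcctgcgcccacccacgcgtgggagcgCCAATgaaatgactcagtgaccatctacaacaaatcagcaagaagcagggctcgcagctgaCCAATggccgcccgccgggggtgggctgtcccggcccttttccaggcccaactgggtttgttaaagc
ARRDC3, chr5:91383318-91383567, minus strand: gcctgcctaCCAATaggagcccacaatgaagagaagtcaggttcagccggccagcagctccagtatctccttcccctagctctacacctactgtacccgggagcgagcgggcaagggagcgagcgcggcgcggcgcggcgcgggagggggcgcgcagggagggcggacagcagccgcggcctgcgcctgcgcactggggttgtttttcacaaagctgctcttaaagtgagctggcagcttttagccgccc

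The TXNIP window held the pair as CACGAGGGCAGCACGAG, 88 to 72 bases before the start, with a CCAAT box starting 105 bases and its reverse ATTGG starting 140 bases before the start. Such a pair was found in 16 of 35116 RefSeq windows of the same length, or 0.0456%. ARRDC4 held an E-box 210 to 205 bases before its start and 3 CCAAT boxes, where 6.34% of all windows held an E-box and 32.0% a CCAAT box. The ARRDC3 window held 1 CCAAT box and neither of the other motifs. Of the 10 genes 9 matched an entry, all but KLF10, and among the other 6 matched genes only MLX held an E-box, 50 to 45 bases before its start, and none held the pair. These matches describe letters and not binding. No other form of the pair was searched, so a window without it is not shown to lack a carbohydrate response element.

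ARRDC3, an alpha-arrestin known for promoting the turnover of adrenergic receptors and an integrin, lies on the minus strand of chromosome 5 from 91368631 to 91383317 (hg38). Its level was 26.3, 26.2 and 25.0 CPM in HK1-overexpressing libraries, against 20.3, 14.3 and 19.8 CPM in control libraries. Every HK1-overexpressing library was above the highest control library, and control replicate 2 was the lowest of the 6. The mean was 25.8 ± 0.735 CPM in HK1-overexpressing and 18.1 ± 3.30 CPM in control libraries (SD, n = 3 each), 42.3% higher, and the log2 fold change was 0.51 (SE 0.109, edgeR adjusted p = 0.0125). Without control replicate 2 the log2 fold change was 0.37 and still passed (adjusted p = 0.00253). The call was lost without HK1-overexpressing replicate 1, 2 or 3 (adjusted p = 0.0626, 0.0621 and 0.0502), in a range of 8.43e-08 to 0.0626 over 15 alternatives. The antisense gene ARRDC3-AS1 shares 2.91% of the exon bases and had 21, 27 and 29 counts in HK1-overexpressing and 18, 10 and 24 counts in control libraries, beside 521, 543 and 526 counts of ARRDC3 in HK1-overexpressing and 403, 244 and 325 in control libraries. The counting used no strand, so fragments that overlap both genes may be left unassigned.

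ARRDC2, a less studied member of the same family, lies on the plus strand of chromosome 19 from 18001132 to 18014102 (hg38). It had 5.40, 4.96 and 6.22 CPM in HK1-overexpressing libraries and 4.48, 3.76 and 4.26 CPM in control libraries. All HK1-overexpressing libraries were above all control libraries. The log2 fold change was 0.40 (SE 0.136, 95% interval 0.11 to 0.70), and the edgeR adjusted p of 0.0854 missed the threshold. It passed under none of the 14 alternatives that tested it, where the adjusted p was 0.0508 to 0.335. A gene on the opposite strand shares 9.53% of the exon bases of ARRDC2.

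ARRDC1, which recruits TSG101 and drives the budding of vesicles from the plasma membrane, lies on the plus strand of chromosome 9 from 137605685 to 137615360 (hg38). It had 40.0, 45.0 and 41.2 CPM in HK1-overexpressing libraries and 42.0, 47.5 and 44.9 CPM in control libraries. The groups overlapped, and the log2 fold change of -0.09 had a 95% interval of -0.24 to 0.06 (edgeR adjusted p = 0.507). ARRDC1-AS1 and another gene share 5.75% of its exon bases. ARRDC1-AS1 itself had 351, 339 and 327 counts in HK1-overexpressing libraries and 285, 293 and 204 counts in control libraries.

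ARRDC4, with TXNIP a standard target of MondoA, lies on the plus strand of chromosome 15 from 97960703 to 97973833 (hg38). It had raw counts of 2, 3 and 3 in HK1-overexpressing libraries and 1, 8 and 2 in control libraries. Control replicate 2 held 8 of the 11 control counts. The ratio of summed counts was 0.629 with an exact 95% Poisson interval of 0.220 to 1.72, so a difference was not detectable at this depth.

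**Figure D3:**
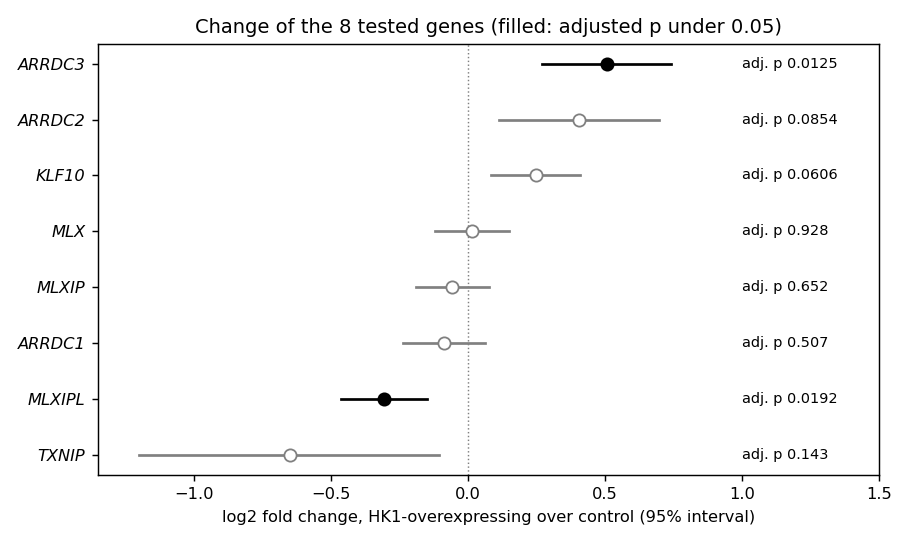
Log2 fold change of the 8 tested genes, HK1-overexpressing over control, with 95% intervals from the edgeR fit (n = 3 each). Filled black points mark ARRDC3 and MLXIPL, which passed at an adjusted p under 0.05, and open points mark the 6 that did not.

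KLF10, a Kruppel-like repressor induced by TGF-beta and by glucose, lies on the minus strand of chromosome 8 from 102648784 to 102655725 (hg38). Its level was 52.1, 56.3 and 53.7 CPM in HK1-overexpressing libraries and 51.0, 41.3 and 44.1 CPM in control libraries. The groups were apart by a narrow margin, with control replicate 1 close to the HK1-overexpressing libraries. The mean was 54.0 ± 2.11 CPM in HK1-overexpressing and 45.5 ± 4.98 CPM in control libraries (SD, n = 3 each), and the log2 fold change of 0.25 (SE 0.0757, 95% interval 0.09 to 0.41) had an edgeR adjusted p of 0.0606. KLF10 passed under 5 of 15 alternatives, among them without control replicate 1, where the log2 fold change was 0.34 (adjusted p = 0.00160), and the adjusted p over all of them was 0.00160 to 0.257. A gene on the opposite strand shares 5.71% of the exon bases of KLF10.

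RGS16, which shortens signalling by G proteins and is induced by glucose in mouse liver, lies on the minus strand of chromosome 1 from 182598623 to 182604389 (hg38). Raw counts were 1, 1 and 2 in HK1-overexpressing libraries and 3, 4 and 0 in control libraries. The ratio of summed counts was 0.494 with an exact 95% Poisson interval of 0.106 to 1.94, and a difference was not detectable. The count of 0 in control replicate 3 allows up to 0.182 CPM (3 counts).

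**Figure D4:**
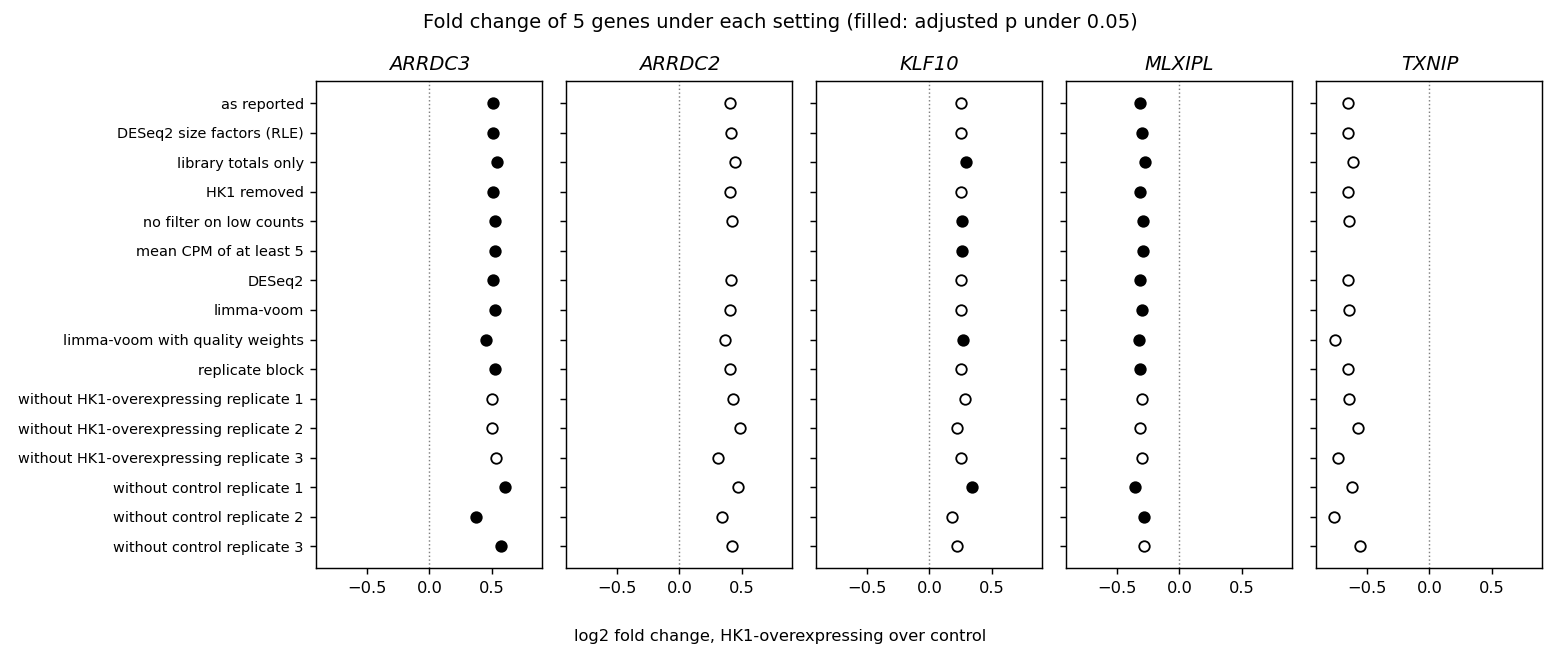
Log2 fold change, HK1-overexpressing over control, of ARRDC3, ARRDC2, KLF10, MLXIPL and TXNIP as reported and under each alternative, with filled points where the adjusted p was under 0.05. No point crosses 0, ARRDC3 and MLXIPL are open without any 1 HK1-overexpressing replicate, a gap marks a gene that an alternative did not test, and TXNIP is open under DESeq2 because no adjusted p was given.

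Known ChREBP targets of glycolysis, fructose use and lipogenesis lay mostly lower. Of 19 listed, 15 were tested, 4 fell and 0 rose, with a median log2 fold change of -0.20 beside 0.01 over all tested genes, of which 4.15% fell. A fall was not particular to these targets. Of the 8 hepatocyte markers, ALB, AFP, APOA1, TF and TTR fell (log2 fold changes of -0.53, -0.57, -0.70, -0.54 and -0.28), and the others did not pass. SERPINA1 had a log2 fold change of -0.51 (edgeR adjusted p = 0.0675), APOB of -0.16 and HNF4A of 0.01. Parts of SERPINA1 and APOB are annotated on alternate sequences, so their counts may miss fragments. KHK, ketohexokinase, had 6.21, 4.82 and 5.98 CPM in HK1-overexpressing libraries and 9.82, 8.58 and 8.51 CPM in control libraries, a log2 fold change of -0.67 (edgeR adjusted p = 0.00329), and passed under all 15 alternatives. TKFC, triokinase, which acts after KHK in fructose breakdown, averaged 44.0 ± 4.11 CPM in HK1-overexpressing and 53.0 ± 2.10 CPM in control libraries (SD, n = 3 each), a log2 fold change of -0.27 (edgeR adjusted p = 0.0351). FASN, fatty acid synthase, averaged 844 ± 47.9 CPM in HK1-overexpressing and 1020 ± 86.2 CPM in control libraries, a log2 fold change of -0.27 (edgeR adjusted p = 0.0172). ME1, the cytosolic malic enzyme that supplies NADPH, averaged 354 ± 5.48 CPM in HK1-overexpressing and 412 ± 16.6 CPM in control libraries, a log2 fold change of -0.22 (edgeR adjusted p = 0.0113).

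Not every target followed. SCD, stearoyl-CoA desaturase, and ACLY, ATP citrate lyase, were abundant and had log2 fold changes of -0.06 and -0.04, with 95% intervals of -0.15 to 0.03 and -0.15 to 0.06. GCKR, the glucokinase regulator, had 29.4, 29.7 and 30.6 CPM in HK1-overexpressing and 22.7, 27.3 and 26.8 CPM in control libraries and did not pass (log2 fold change 0.23, edgeR adjusted p = 0.0938). With library totals only, GCKR was called higher and TKFC was not called, so that 1 rose and 3 fell. GCKR was also called higher with no filter on low counts and without control replicate 2, where 1 rose and 4 fell. KHK alone fell without HK1-overexpressing replicate 1 or 2, and KHK and FASN without control replicate 3. Calls were also lost for FASN without control replicate 2 and for ME1 without HK1-overexpressing replicate 3, with adjusted p up to 0.215 for TKFC, 0.126 for FASN and 0.0887 for ME1. THRSP and FGF21, liver targets of ChREBP, had no count in any library, which allows up to 0.142 to 0.152 CPM in HK1-overexpressing and 0.151 to 0.182 CPM in control libraries. PKLR, the liver pyruvate kinase, also had no count, but part of PKLR and of ACACA is annotated on alternate sequences, so their counts may miss fragments.

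**Figure D5:**
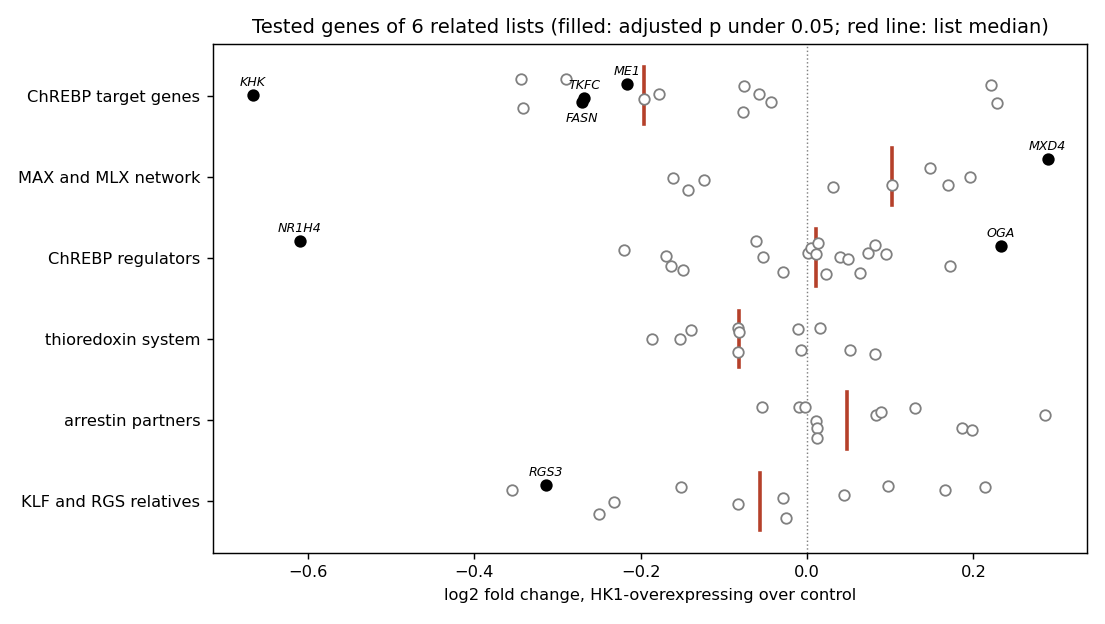
Log2 fold change, HK1-overexpressing over control, of each tested gene in 6 related lists, with filled and named points where the edgeR adjusted p was under 0.05 and a red line at each list's median. The ChREBP targets have the lowest median, -0.20, and 4 called genes, all lower.

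In the wider MAX and MLX network of dimerising factors, 9 of 10 genes were tested, 1 rose and 0 fell, with a median log2 fold change of 0.10. With 8.02% of all tested genes called, 1 of 9 is near the background. It was MXD4, a repressor that dimerises with MAX, with 53.6, 57.3 and 56.5 CPM in HK1-overexpressing and 44.6, 47.2 and 45.2 CPM in control libraries (log2 fold change 0.29, edgeR adjusted p = 0.00836). Its call was lost without HK1-overexpressing replicate 2 or 3, with adjusted p up to 0.0757, and without control replicate 2 MYC fell. Among 21 genes that act on ChREBP, 1 rose and 1 fell, near the 8.02% called over all tested genes, and the median log2 fold change was 0.01. NR1H4, the bile acid receptor FXR, which is known to act on ChREBP at glycolytic genes, averaged 32.1 ± 1.11 CPM in HK1-overexpressing and 48.9 ± 1.70 CPM in control libraries, a log2 fold change of -0.61 (edgeR adjusted p = 3.26e-05) that passed under all 15 alternatives. OGA, which removes the O-linked sugar that OGT puts on ChREBP and other proteins, averaged 62.3 ± 0.792 CPM in HK1-overexpressing and 53.0 ± 3.26 CPM in control libraries (SD, n = 3 each, log2 fold change 0.23, edgeR adjusted p = 0.0314), a call that did not hold when control replicate 3 or any 1 HK1-overexpressing replicate was left out or when the replicate numbers entered as a block (adjusted p up to 0.133). The list numbered 4 called genes without control replicate 1, where OGT rose and PRKACA, partly annotated on an alternate sequence, fell, and 4 without control replicate 2. The liver X receptors NR1H2 and NR1H3, known activators of MLXIPL transcription, had log2 fold changes of 0.01 and 0.02, with 95% intervals of -0.14 to 0.17 and -0.14 to 0.18.

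Of the thioredoxin system, TXN and TXNRD1 were abundant where TXNIP had few counts. TXN, thioredoxin, averaged 655 ± 38.4 CPM in HK1-overexpressing and 693 ± 127 CPM in control libraries, and TXNRD1, thioredoxin reductase, 2060 ± 19.6 CPM in HK1-overexpressing and 2080 ± 147 CPM in control libraries. Of 11 genes of the thioredoxin system, 0 were called by edgeR, DESeq2 or unweighted limma-voom, and 2, PRDX6 and PRDX2, were lower at an unadjusted edgeR p under 0.05, with log2 fold changes of -0.15 and -0.14. These 2 are 18.2% of the list, beside 21.9% of all tested genes at an unadjusted p under 0.05. The median of the 11 was -0.08. Without control replicate 1, where TXN was lowest at 550 CPM, 4 of the 11 fell. Of 15 listed genes of other arrestins, NEDD4-family ligases and TSG101, 12 were tested, with a median log2 fold change of 0.05. Of these 12, 0 were called by edgeR with TMM and the filter used here, by DESeq2 or by unweighted limma-voom, and 2 were higher at an unadjusted edgeR p under 0.05, or 16.7% beside 21.9% of all tested genes. These were the ligase genes NEDD4L (log2 fold change 0.19, edgeR adjusted p = 0.0503) and SMURF2 (0.29, adjusted p = 0.0508), both just short of the threshold and both called by edgeR with DESeq2 size factors, with library totals only, with no filter or with a minimum mean of 5 CPM. Without control replicate 1, NEDD4L, SMURF2, NEDD4 and HECW2, all ligase genes, passed as higher.

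For the relatives of KLF10 and RGS16, 12 of 19 were tested, 1 fell and 0 rose, near the 8.02% called over all tested genes, with a median log2 fold change of -0.06. RGS3, another regulator of G protein signalling, fell to 50.6, 46.6 and 48.3 CPM in HK1-overexpressing libraries, against 60.1, 63.2 and 57.5 CPM in control libraries (log2 fold change -0.31, edgeR adjusted p = 0.00623). Its call was lost only without HK1-overexpressing replicate 2 (adjusted p = 0.0660, the highest of 15 alternatives). RGS2 fell too without control replicate 1, and KLF9 without control replicate 2. KLF11, a close relative of KLF10, had a log2 fold change of 0.10 with a 95% interval of -0.11 to 0.30.

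Across the 6 libraries, the genes whose log2 CPM followed that of TXNIP most closely among 9452 genes with a mean of at least 10 CPM were POGLUT3, SNRPD3, ZNF35, KIF20A and COQ2, with Pearson correlations of 0.995, 0.993, 0.989, 0.987 and 0.983. Only 6 libraries enter, they share the group difference, and TXNIP had at most 26 counts in any of them, so these names describe the libraries and nothing more.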

How the data were processed

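Raw counts per gene were deposited by the authors for 6 Huh7 samples. Per the file headers, featureCounts 1.5.3 (paired mode) summed exons by gene name, using the GENCODE release 47 annotation including alternate sequences and no strand or multi-mapping option. Trim Galore, Subread and the build hg38 are named per the submitters' processing notes, and RNA was extracted with TRIZOL and libraries made with a stranded mRNA kit, per the labels' protocols. Columns were matched to samples by title and were tested to hold whole numbers.

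Counts were normalised by TMM and filtered by filterByExpr (16734 genes), and the 3 HK1-overexpressing and 3 control samples entered edgeR 4.0.16 under R 4.3.3 (robust quasi-likelihood test, group only, threshold 0.05). CPM are counts per 1000000 of the tested-gene total times its TMM factor. Standard errors are the coefficient over the square root of F, and intervals use them with the fit's degrees of freedom. Alternatives used other size factors or filters, DESeq2 1.42.0, limma-voom (limma 3.58.1), a replicate block and each replicate left out. The fit was also run on counts simulated under its own model, which checks the code and not whether the model holds here. Library totals give the depth. The edgeR intervals include the spread among libraries, whereas Poisson intervals and floors (3 counts) cover counting error only. Poisson intervals and floors also treat counts as independent molecules, which PCR copies are not.

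Members, 6 gene lists and the naming rule were chosen with earlier results of these data known. The rule named all members, HK1, up to 4 called genes per list (or the 2 of smallest p) and the 5 genes most like TXNIP. SCD, ACLY, GCKR, PKLR, THRSP, FGF21, ACACA, NR1H2, NR1H3, OGT, PRKACA, MYC, TXN, TXNRD1, NEDD4, HECW2, RGS2, KLF9, KLF11, ALB, AFP, APOA1, TF, TTR, SERPINA1, APOB, HNF4A, COL1A1, COL1A2, COL3A1, PDGFRB and DCN were named after their values were seen. Promoter sequences came from RefSeq, GRCh38.p14.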

Additional observations from a re-analysis of the deposited data

How the results depend on the processing

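MLXIPL, MLXIP, TXNIP, ARRDC1, ARRDC2, ARRDC3 and KLF10 kept their direction under every alternative that gave a value, and MLX, near 0, turned to -0.01 without HK1-overexpressing replicate 3 and -0.04 without control replicate 1, in a range of -0.04 to 0.06 with each replicate left out. With each replicate left out, called genes numbered 536 to 2257 of all tested (1342 as reported), with 554, 536 and 598 without HK1-overexpressing replicate 1, 2 and 3, 2257 without control replicate 1 and 809 without control replicate 3, and 0 to 3 of the 10 genes examined (2 as reported). Those of the lists numbered 1 to 5 for ChREBP targets, 0 to 2 for the MAX and MLX network, 1 to 4 for ChREBP regulators, 0 to 4 for the thioredoxin system, 0 to 4 for arrestin partners and 0 to 2 for KLF and RGS relatives. Each fit with a replicate left out also has fewer samples, and the cause of these shifts was not tested. Arrestin partners called numbered 2 with DESeq2 size factors in edgeR, with library totals only, with no filter, with the minimum mean of 5 CPM and with quality weights. Library totals only also gave 2 for the MAX and MLX network, and 907 genes higher and 462 lower in all, in place of 648 and 694, with the median of all genes at 0.045 in place of 0.006. Quality weights gave 2155 called genes in all, 1 of the thioredoxin system and 3 of KLF and RGS relatives. With the replicate block, ChREBP regulators called numbered 1 and no other count moved by more than 1.5 times. The labels do not say whether the numbers pair the samples. Correlations of same-numbered deviations were -0.009, 0.051 and -0.051, and not every sample correlated best with its own number. With 3 libraries per group this check cannot exclude pairing. Without a filter ARRDC4 and RGS16 gave log2 fold changes of -0.64 and -0.93 (adjusted p = 0.698 and 0.686). DESeq2 gave no adjusted p for TXNIP. Depth limits TXNIP, ARRDC4 and RGS16 most.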
